A study of Mus musculus with 2 samples.

Results

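The exocrine pancreas sends lipases, amylase, proteases and a ribonuclease into the duodenum, and this account follows the transcripts of its lipid-digesting enzymes and of a few further acinar genes in RNA from mouse small intestine. The 10 genes listed are Cel, Pnlip, Pnliprp1, Pnliprp2, Clps, Pla2g1b, Gp2, Try4, Rnase1 and Ptf1a. They were chosen by gene symbol while the ratios between the diets were already known from the same arrays, so the ratios below describe these genes and carry no test. Of 45037 probesets other than controls, 14 were annotated to 9 of these genes, and no probeset used here was annotated to Pnlip. The annotation pairs Try4 with Try5 on 1 probeset, and both encode trypsinogens, so this member is a protease although the other members are not.

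Acinar cells package digestive enzymes into zymogen granules and release them through the pancreatic duct. Pancreatic lipase splits dietary triglycerides and needs colipase to hold on to droplets coated with bile salts. Carboxyl ester lipase splits cholesteryl esters, retinyl esters and triglycerides, and the pancreatic phospholipase A2 splits phospholipids, so that the products can enter enterocytes. The transcription factor encoded by Ptf1a forms the PTF1 complex, which drives the enzyme genes of acinar cells.

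The EPA&DHA mice received an isocaloric diet named sHFf-F2 in which a concentrate with 6% EPA and 51% DHA took the place of 44% of the lipids. The control diet, sHFf, held flaxseed oil, rich in ALA, as its single lipid source. All mice were C57BL/6J males aged 4 months and ate a semisynthetic diet with 20% fat by weight for 4 weeks, 12 mice to a diet. RNA of 11 EPA&DHA mice and of 10 control mice was combined into 1 pool per diet, and each pool was hybridized to 1 Affymetrix MOE430_2 array. Differences between mice were thus averaged before measurement, and no standard error or p-value can be given. The sample labels describe the complete small intestine homogenized for RNA, whereas the methods describe epithelium scraped from the gut between stomach and caecum, and neither names pancreas.

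A probeset reads a transcript with a set of short probes, and its MAS 5.0 signal is in arbitrary units that can be compared between the arrays but not between probesets. The probesets with the highest mean signal were kept, as many as the methods call expressed, and the dimmest of these had a mean signal of 51.4. The local SD is the robust SD of the log2 ratios of the 500 probesets nearest in signal, which measures how far ratios scatter at that brightness and is not a replicate error. Over all kept probesets the median log2 ratio of EPA&DHA over control was -0.04. The 24 probesets for poly-A control transcripts, added ahead of labelling, had a median ratio of 1.27. Enterocyte genes, which define the tissue, were bright on both arrays, and none of the 11 measured of 12 reached 1.5-fold in either direction, with a median log2 ratio of -0.16. Of the regulators of acinar genes, Ptf1a did not reach the level of the filter on either array, and Rbpjl was not kept either. Bhlha15 and Nr5a2 each had a probeset that was kept, and the values of these genes are given below.

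Promoters of 9 of the 10 members were found in RefSeq for the mouse build GRCm38.p6, all but Clps. Those of Cel, Try4 and Pnliprp2 are shown because their windows were the ones with a match to the E-box defined here, and each is given as the 250 bases before the annotated start. Capitals mark the E-box CACCTG, the TC-box TTTCCC and the TATA box TATAAA, each on either strand. E-box and TC-box are the 2 kinds of element to which PTF1 binds.
Cel, chr2:28563404-28563653, minus strand: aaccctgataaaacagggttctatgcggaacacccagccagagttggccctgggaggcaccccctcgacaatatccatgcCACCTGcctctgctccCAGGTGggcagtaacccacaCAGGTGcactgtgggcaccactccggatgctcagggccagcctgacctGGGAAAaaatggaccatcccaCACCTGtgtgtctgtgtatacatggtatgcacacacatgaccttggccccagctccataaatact
Try4, chr6:41302022-41302271, plus strand: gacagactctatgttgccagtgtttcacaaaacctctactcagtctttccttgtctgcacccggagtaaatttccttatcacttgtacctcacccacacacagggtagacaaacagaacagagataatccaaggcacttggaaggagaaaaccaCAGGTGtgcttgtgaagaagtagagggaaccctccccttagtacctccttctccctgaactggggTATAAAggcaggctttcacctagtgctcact
Pnliprp2, chr19:58759473-58759722, plus strand: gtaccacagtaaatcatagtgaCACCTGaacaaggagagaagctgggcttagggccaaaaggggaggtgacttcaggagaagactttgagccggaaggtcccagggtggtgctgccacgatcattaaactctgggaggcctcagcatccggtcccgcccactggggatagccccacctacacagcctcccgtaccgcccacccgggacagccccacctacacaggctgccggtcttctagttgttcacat

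The Cel window held 4 matches to the E-box and 1 to the TC-box, the last E-box lying 65 to 60 bases and the TC-box 86 to 81 bases before the start. The Try4 window held 1 E-box and 1 TATA box, and the Pnliprp2 window 1 E-box alone. Among all 32851 windows of the same length, 17.2% held this E-box, 21.9% this TC-box, 12.4% the TATA box and 3.61% both E-box and TC-box. No match overlapped another in these windows. Of the other members, Pnlip and Gp2 had 1 TATA box each, and the windows of Pnliprp1, Pla2g1b, Rnase1 and Ptf1a held none of the 3 strings. These are matches of letters, and binding was not measured.

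Cel, the carboxyl ester lipase, had the largest difference of the members that were read by a kept probeset of their own. Its signal was 839 in the EPA&DHA pool and 217 in the control pool. This is a ratio of 3.86, a log2 ratio of 1.95 beside a local SD of 0.32, and 64 kept probesets had a larger ratio. In RNA of a whole tissue, more cells of a type and more RNA per cell cannot be told apart, and the same holds for each value below. The promoter of this gene was the only one of the 9 with both an E-box and a TC-box, beside 3.61% of all windows. Whether these matches bear on the ratio was not tested.

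The lipase-related proteins lay closer to 1. Pnliprp1, a relative of pancreatic lipase with little known activity on triglycerides, had a signal of 458 on EPA&DHA and 262 on control. Its log2 ratio was 0.80, which is 1.75-fold, with a local SD of 0.33. Pnliprp2, which splits galactolipids and phospholipids besides triglycerides, was read by 2 probesets. The brighter had 2126 on EPA&DHA and 1704 on control, a log2 ratio of 0.32, and the other had 1470 on EPA&DHA and 1360 on control, a log2 ratio of 0.11. With local SDs of 0.25 and 0.24, the first exceeded its local SD and the second did not. Pnliprp1 and Pnliprp2 are neighbours on chromosome 19, next to Pnlip.

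Clps, the colipase, was also read by 2 probesets and both gave a higher signal on EPA&DHA. The brighter had 2977 on EPA&DHA and 1838 on control, 1.62-fold higher with a log2 ratio of 0.69 and a local SD of 0.24. The other had 2218 on EPA&DHA and 1673 on control, 1.33-fold higher with a log2 ratio of 0.41 and a local SD of 0.25. The 2 probesets of Clps and the 2 of Pnliprp2 each agreed in direction. Where a gene had several kept probesets, as 5321 genes did, the brightest minus the next had an SD of 0.53 in log2 ratio. The gap between the probesets of either gene was smaller. That SD includes dim probesets, which scatter more, so no particular agreement is read from it.

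Pla2g1b, the pancreatic phospholipase A2, had 4 probesets, none of which passed the filter. On 2 of them the EPA&DHA pool stood above the level of 51.4 and the control pool far under it. Their signals were 94.1 on EPA&DHA against 8.33 on control, and 92.9 on EPA&DHA against 6.61 on control. The nominal log2 ratios of 3.50 and 3.81 rest on these dim control values, where the local SDs were 1.43 and 1.32. With the control signal replaced by the level of the filter, the ratios were 1.83 and 1.81. The remaining 2 probesets were dim on both arrays, with 13.0 on EPA&DHA and 15.6 on control for the first and 2.24 on EPA&DHA and 15.1 on control for the second. Their local SDs were 2.54 and 2.20, and no direction can be read from them.

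**Figure D1:**
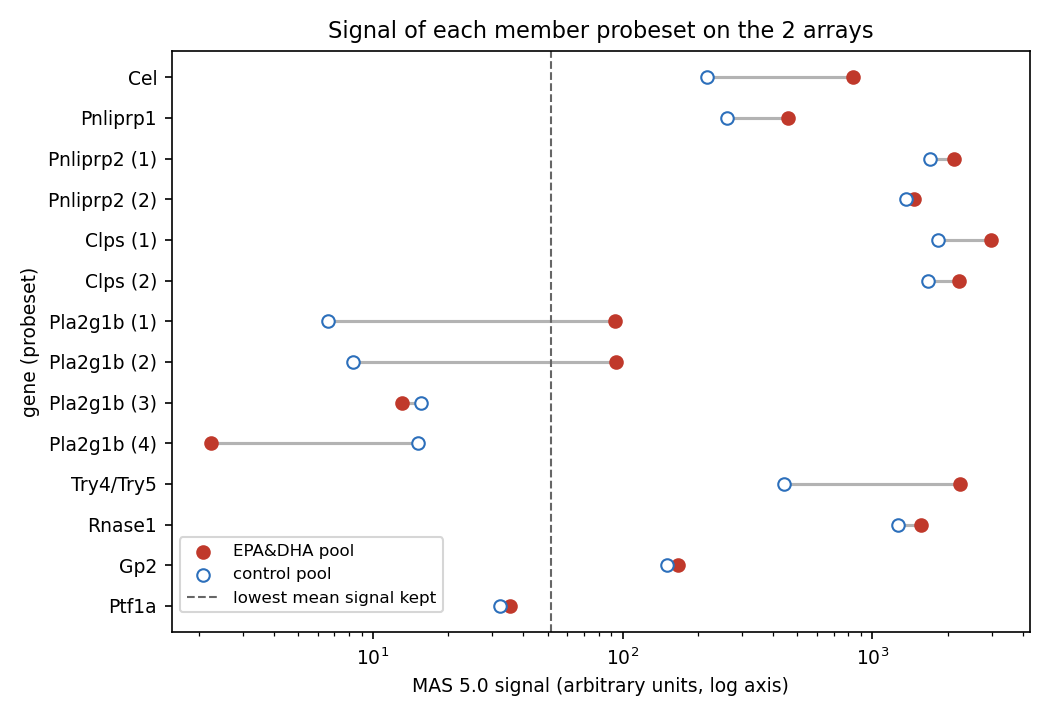
MAS 5.0 signal (x axis, arbitrary units, log scale) of each member probeset (rows) in the EPA&DHA pool (red) and the control pool (open blue), 1 array each, with a dashed line at the lowest mean signal kept, 51.4. Cel and the probeset shared by Try4 and Try5 have the widest gaps right of the line, and the 4 probesets of Pla2g1b lie partly or wholly left of it.

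Of the proteins that are not lipid enzymes, the trypsinogen stood apart. The probeset shared by Try4 and Try5, neighbours on chromosome 6, had a signal of 2245 on EPA&DHA and 442 on control. It was 5.08-fold higher, a log2 ratio of 2.34 with a local SD of 0.26, and 25 kept probesets had a larger ratio. The share of each gene in this signal cannot be told apart.

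Rnase1, the pancreatic ribonuclease, had 1561 on EPA&DHA and 1264 on control, a log2 ratio of 0.30 with a local SD of 0.24. Gp2, the main glycoprotein of the zymogen granule membrane and also a surface protein of M cells over Peyer's patches, had 166 on EPA&DHA and 149.7 on control, with a log2 ratio of 0.15 and a local SD of 0.50. Neither gene reached 1.5-fold, and the ratio of Gp2 was well within its local SD.

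Ptf1a had a signal of 35.2 on EPA&DHA and 32.3 on control, under the filter on both arrays. Its log2 ratio of 0.13 was small beside a local SD of 0.95, so neither its presence nor a difference in it was detectable at this signal. Rbpjl, the acinar partner of Ptf1a in the PTF1 complex, was singled out after its values were seen. Its 2 probesets were dim on both arrays, with 14.1 and 4.56 on EPA&DHA and 20.3 and 5.02 on control.

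Counted together, 9 member probesets were kept, all above 51.4 on both arrays. Their log2 ratios ran from 0.11 to 2.34, beside a median of -0.04 over all kept probesets. Of the 9 probesets, 2 passed 2-fold upward, those of Cel and of Try4 with Try5, beside 2.29% of all kept probesets. When each gene was represented by the brightest kept probeset naming no other gene, 6 members were measured. Among them 1 was at least 2-fold higher, beside 1.57% of 11687 genes, and 3 were at least 1.5-fold higher, beside 6.20% of genes. None of the 6 was at least 1.5-fold lower, beside 7.88% of genes. The median log2 ratio of the 6 was 0.51 and their range 0.15 to 1.95, with a median of -0.05 over all genes. The members were picked with these ratios in view, so nothing is read from the counts.

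**Figure D2:**
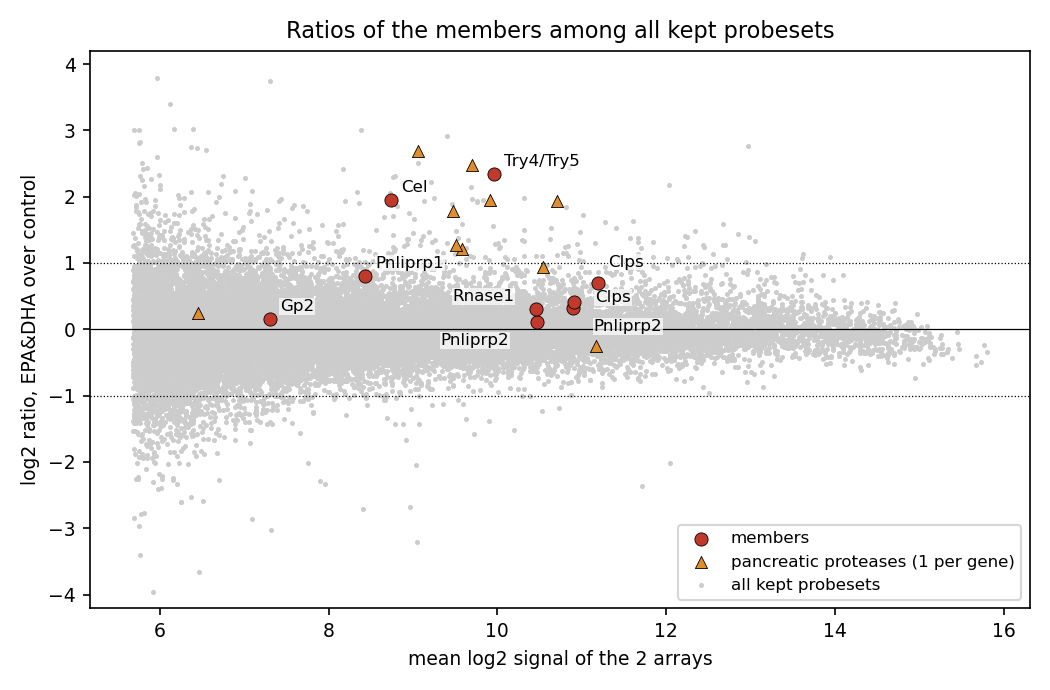
Log2 ratio of EPA&DHA over control (y axis) against mean log2 signal (x axis) for the kept probesets (grey), the 9 kept member probesets (red circles) and 10 pancreatic protease genes (orange triangles), with dotted lines at 2-fold. Cel at 1.95 and the probeset of Try4 and Try5 at 2.34 lie above 1, as do 7 of the 10 proteases, and the other member probesets lie between 0.11 and 0.80, within the range of the proteases from -0.25 to 2.70.

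The amylases, the starch-splitting enzymes of pancreas and salivary gland, were looked up beside the members. The probeset shared by the 5 pancreatic copies Amy2a1 to Amy2a5 had 4205 on EPA&DHA and 2240 on control, a log2 ratio of 0.91 or 1.88-fold, beside a local SD of 0.24. It cannot be assigned to any of the copies. The probeset shared by Amy1 and Rnpc3, an RNA-binding protein of the minor spliceosome, was 2.35-fold higher, with 257 on EPA&DHA and 109.5 on control. The probeset of Amy1 alone was under the filter, with 15.0 on EPA&DHA and 32.4 on control.

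The median ratio of pancreatic proteases was higher than that of the members. Of 16 listed genes 10 were measured, of which 7 had at least 2-fold more signal on EPA&DHA and 0 were 1.5-fold or more lower, with a median log2 ratio of 1.53. Highest were Cpb1 (carboxypeptidase B1) at 2.70 and Ctrb1 (chymotrypsinogen B1) at 2.48. Lowest were the tissue kallikrein Klk1 at -0.25 and chymotrypsin C, Ctrc, at 0.25. With 1 array per diet, the difference between the proteases and the measured members, which include Rnase1 and Gp2, was not tested.

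A list of 19 other acinar products and regulators had 12 measured genes. At least 2-fold higher were 2, past 1.5-fold 3, none was lower by 1.5-fold or more, and the median log2 ratio was 0.40. The zymogen granule protein syncollin, Sycn, stood at 2.42 (1.18 on its other probeset) and Reg2, of the regenerating protein family, at 1.94. At the other end were the lectin Zg16, which goblet cells also make, at -0.34 and Gatm, an enzyme of creatine synthesis, at -0.24. Among the regulators of acinar genes, Bhlha15 had a log2 ratio of 0.41 with a local SD of 0.49 and Nr5a2 one of 0.00 on its brightest probeset, and of -0.43 and -0.30 on others. Both were singled out after their values were seen.

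Enzymes of the same families that act outside the pancreas were spread around 0. Of 11 measured lipases of other tissues, each taken by its brightest probeset, none passed 2-fold in either direction, 2 passed 1.5-fold upward and 2 downward, with a median log2 ratio of 0.01. The carboxylesterase Ces1f stood at 0.89 and monoglyceride lipase, Mgll, at 0.69, while lipoprotein lipase, Lpl, was at -0.75 and Pnpla3 at -0.64. The other 2 kept probesets of Mgll gave 1.26 and 1.04, past 2-fold, and a further one of the lysosomal acid lipase Lipa gave 0.68. Of 6 measured secreted phospholipases A2 other than Pla2g1b, 1 passed 1.5-fold upward and 1 downward, which were Pla2g5 at 0.84, with a local SD of 0.68, and Pla2g10 at -0.61. Pla2g5 had 73.7 on EPA&DHA and 41.2 on control, the control being under the level of the filter, so its ratio rests on a dim value. In the RNase A family, angiogenin (Ang) at 0.46 and Rnase4 at 0.34 were above 0, by their brightest probesets. Dimmer kept probesets of Ang gave 0.74 and 0.63, past 1.5-fold. Below 0 were Rnase6 at -0.40 and Rnase10 at -1.45, the latter with 35.1 on EPA&DHA, under the level of the filter, and 95.5 on control.

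Markers of other cells that a sample of gut could hold were counted in the same way, and their part in the ratios of the members was not tested. Of the markers of pancreatic islets, 3 of 10 were measured and 0 reached 1.5-fold by their brightest probesets, with summed signals of 4169 on EPA&DHA and 4328 on control. Such sums weigh the brightest probesets most and are set only against the same sum on the other array. These 3, Gcg, Sst and Iapp, are also made in gut endocrine cells (a dimmer probeset of Iapp gave 0.67). Insulin (Ins2) did not pass the filter, with 16.7 on EPA&DHA, 52.7 on control and a local SD of 1.15. Other islet markers under the filter went both ways, such as Ppy with 12.1 on EPA&DHA and 6.07 on control. Nkx6-1 had 11.4 on EPA&DHA and 21.3 on control. Of the duct markers, 4 of 7 were measured and 1, Sox9 at 0.85 with a local SD of 0.51, was at least 1.5-fold higher (0.22 on its next probeset), while Cftr gave -0.16 on its brightest and 0.96 on its other probeset, with summed signals of 21250 on EPA&DHA and 22260 on control. The intestine expresses these 4 genes too, and the sum is mostly Krt19, with 18520 on EPA&DHA and 19330 on control. Paneth and goblet cell genes, measured in 8 of 8 cases, had 0 beyond 1.5-fold by their brightest probesets and a median of -0.29, with summed signals of 159400 on EPA&DHA and 197700 on control. Dimmer kept probesets of Lyz1 and Clca1 were lower, at -1.49 and -0.93.

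Stomach markers were measured in 2 of 8 cases, with Atp4b, a subunit of the gastric proton pump, at 1.71 and Tff1 at 0.12. Atp4b was 107.5 on EPA&DHA and 32.9 on control with a local SD of 0.65, and as this control signal is under the level of the filter, its ratio rests on a dim value. Among the stomach markers not kept, Gkn2 had 86.7 on EPA&DHA and 18.8 on control, with a local SD of 0.94. The brighter probeset of Gkn1 had 54.2 on EPA&DHA and 6.91 on control, with a local SD of 2.03. The other Gkn1 probeset had 14.3 on EPA&DHA and 19.2 on control. Muc5ac had 6.07 on EPA&DHA and 15.0 on control, and Cblif 7.36 on EPA&DHA and 4.62 on control. The other pump subunit Atp4a had 47.2 on EPA&DHA and 54.6 on control, and the pepsinogen Pgc 28.6 on EPA&DHA and 32.7 on control. For the Brunner glands and proximal duodenum 5 of 7 genes were measured and 0 reached 1.5-fold, with a median of 0.07. The Brunner gland marker Tff2 was not kept and had 70.2 on EPA&DHA and 17.1 on control, with a local SD of 0.96. Of the ileal genes 6 of 6 were measured and only Fgf15, at -3.03, passed 1.5-fold, with 55.8 on EPA&DHA and 455 on control. Liver markers were measured in 3 of 6 cases with 0 beyond 1.5-fold by their brightest probesets (a dimmer one of Ttr gave 0.64), and albumin (Alb) had 13.0 on EPA&DHA and 4.73 on control. Of the fat markers 3 of 6 were measured, and by the brightest probeset Retn, at -1.24, was the only one beyond 1.5-fold, while a second kept probeset of Fabp4 gave 1.16, with 323 on EPA&DHA and 144 on control, and its brightest gave 0.02.

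Genes by which enterocytes take up and ship the products of lipid digestion were counted beside the lipases that make them. Of 13 listed genes 12 were measured, 2 of them at least 2-fold higher and 0 lower by 1.5-fold or more, with a median log2 ratio of -0.09. The 2 were the lipoprotein receptor Scarb1 at 1.21 and the fatty acid transporter Cd36 at 1.06. Lowest were the apolipoprotein Apoa4 at -0.38 and the fatty acid-binding protein Fabp2 at -0.30.

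**Figure D3:**
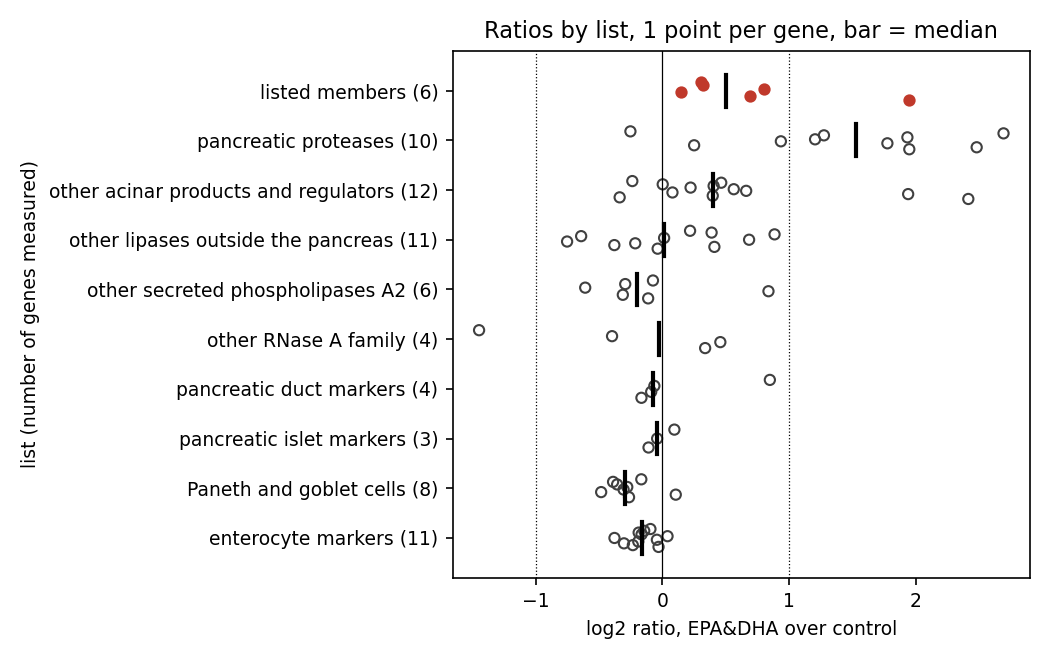
Log2 ratio of EPA&DHA over control (x axis) for each measured gene (points) of the 6 members with a kept probeset of their own (red) and of 9 other lists (open), with the number of genes in brackets, black bars at the medians and dotted lines at 2-fold. Medians were 0.51 for the members, 1.53 for the proteases and -0.16 for enterocyte markers.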

How the data were processed

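RNA pooled per diet was hybridized to 1 array per diet. The authors summarized each probeset with MAS 5.0 (version not given in the sources used here), and the deposited values are linear intensity signals scaled to a target of 500. Here both arrays were rescaled to the same 2% trimmed mean over the 45037 probesets other than controls, and as many probesets as the methods call expressed were kept by mean log2 signal. Gene names came from the platform's annotation, updated by gene identifier to RefSeq symbols; 34945 probesets named 1 gene, 932 several and 9160 none. Ratios are EPA&DHA over control, without a test. Members and lists were chosen with earlier results of these data known. Every member is named, and of each other list the 2 highest and 2 lowest genes or its counts. The calculation was checked on simulated arrays with planted ratios and normally distributed scatter set to the local SD. That checks the code and not how ratios scatter in these data. Alternatives were other scalings, an offset of 50, other filters and other choices of probeset. The precision is limited by the number of arrays. Promoter sequences are those of RefSeq. Python 3.11.15, numpy 2.4.6, pandas 2.3.3, scipy 1.17.1, statsmodels 0.14.6 and matplotlib 3.10.9 were used.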

Additional observations from a re-analysis of the deposited data

How the results depend on the processing

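Without the filter, 2 member genes were at least 2-fold higher, as Pla2g1b joined Cel through a dim control signal, and 4 member probesets were. Counting probesets that name several genes also gave 2 member genes, since Try4 entered. In all other alternatives run (loess correction, quantile normalization, median centring, signals as deposited, an offset of 50, the brightest 12135 probesets, averaged probesets, and no x_at or s_at probesets) the gene was Cel alone. The median log2 ratio of member genes ran from 0.43 with averaged probesets to 0.69 among the brightest 12135 probesets and with probesets naming several genes. All 45 recomputed log2 ratios of kept member probesets moved by less than the local SD and none turned in sign.

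Over all kept probesets, 555 passed 2-fold upward and 619 downward. These counts were 682 and 478 after quantile normalization, 676 and 493 after loess correction, 235 and 105 with the offset, 152 and 32 among the brightest 12135 and 5522 and 6857 without the filter. No paired analysis was possible because each diet had 1 array.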
